A study of Homo sapiens with 208 samples.

Results

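The early transcriptional response of PC9M2 cells to gefitinib was described from 12 of the 208 arrays of the series, 6 of gefitinib-treated and 6 of untreated cells. Arrays of PC9 cells without and with gefitinib and of PC9M2 cells at 19 to 24 h served for comparison. So did arrays of PC9M2 cells given EGF, without or with gefitinib. PC9M2, labelled PC9GRM2 in the sample records, is a gefitinib-resistant derivative of PC9, a human lung adenocarcinoma line whose EGFR carries an activating deletion in the kinase domain. It was selected from PC9 by months of culture in low gefitinib and is a single selected line, so that its values describe that line and not resistance in general. The members were chosen by their labels for cell line, treatment (gefitinib or no treatment, both without EGF) and time (0, 0.5, 1, 2, 3 and 4 h), and no measured value entered the choice. All cells had been starved for 48 h. The treated cells received 0.5 μM gefitinib, and because the drug was added before time 0 in the study's scheme, the 0 h array labelled gefitinib already came from drug-exposed cells.

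Gefitinib blocks the kinase of EGFR. Mutant EGFR signals without ligand through the RAS-ERK cascade, which drives transcription of immediate-early genes and of its own inhibitors (the DUSP phosphatases, Sprouty and Spred proteins), and through PI3K and AKT, which hold FOXO transcription factors out of the nucleus. When EGFR is blocked in sensitive lung cancer cells, transcripts of the first branch are known to fall and transcripts of FOXO target genes to rise, together with proapoptotic BH3-only genes such as BMF and BCL2L11 (BIM).

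Each time point was represented by 1 array per treatment, so the 6 time points stood in for replicates, and the p-values below measure the spread of the gefitinib-minus-untreated difference between 6 samplings of 1 experiment, which are not independent cultures. Levels are log2 intensities after quantile normalization and are compared only within a probe. The number of features well above background was 28376 to 32304 on the untreated arrays and 28809 to 32488 on the gefitinib arrays. Every untreated sample lay at position 1 of its slide and every gefitinib sample at position 4, so that slide position and treatment cannot be told apart. The slides of 0, 0.5, 2 and 3 h were scanned on the same day and those of 1 and 4 h on 2 other days. The difference at each time point correlated with the mean difference of the other 5 at r = 0.469 to 0.698 across 12929 genes, as a description over genes that are not independent. Transcripts of epithelium (EPCAM, CDH1, KRT7, KRT8, KRT18 and KRT19) were present for 6 of 6 markers. Of 5 distal lung markers 4 were present, and NKX2-1, the lineage factor of the distal lung, was absent. No fibroblast marker was present among 5 with a probe, while 2 of 4 endothelial and 2 of 4 leukocyte markers were, with the pan-leukocyte gene PTPRC absent from all 12 arrays. In such bulk samples, fewer cells of a type and less RNA per cell cannot be told apart. A pair of PC9M2 arrays outside the 12, those labelled EGF and EGF with gefitinib at 0.5 h, went against their labels and is described with the EGF comparison.

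Of 12929 genes tested, 2399 differed between gefitinib and untreated cells at an adjusted p under 0.05 (limma, Benjamini-Hochberg), which is 18.6%. Of these, 1146 rose (8.86%) and 1253 fell (9.69%). The change reached 2-fold in 405 genes, 189 higher and 216 lower, and 4-fold in 18 higher and 22 lower genes. The median difference over all tested genes was 0.01 on the log2 scale. Of the 2399 genes, 2225 had a difference of the same sign in each of the 6 pairs, against 3376 of all 12929 tested. Groups that did not overlap were found for 767 of the called genes, against 814 (6.3%) of all tested genes. A call on the mean of the same differences favours both traits. The differences were smallest at 0 h: 49 of the 189 higher genes were at least 2-fold higher there, against 85, 121, 155, 177 and 174 at 0.5, 1, 2, 3 and 4 h. Of the 216 lower genes, 65 were at least 2-fold lower at 0 h and 117, 172, 181, 185 and 179 at the following times. These counts describe genes chosen on the mean of the same 6 differences. With the 4 pairs scanned on the same day, a smaller set that was chosen after seeing the data, 505 genes were called. A fit that took the day of the scan for a random effect gave 1495. Leaving out the 2 h pair gave 1205 genes, without the 3 h pair 1343, without the 4 h pair 1447, without the 1 h pair 1493 and without the 0.5 h pair 1571.

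Genes that restrain ERK signaling were among the largest falls. DUSP6, the phosphatase that inactivates ERK, had log2 levels of 12.13, 12.48 and 13.05 (lowest, median and highest) in untreated cells and 7.75, 8.20 and 10.24 in gefitinib-treated cells. The groups did not overlap, and the highest treated level was that of 4 h. The mean difference was -3.98 ± 0.32 (SE, n = 6 pairs), with an adjusted p of 0.000951 in limma. The difference was -5.20 at 0.5 h and -2.42 at 4 h, although the slope over time did not pass the test (0.56 per h, limma adjusted p = 0.0511). SPRY4, a Sprouty inhibitor of receptor signaling, had levels of 9.72, 9.95 and 10.48 without and 4.97, 5.96 and 8.39 with gefitinib. Its groups did not overlap either, and its mean difference was -3.73 ± 0.42 (limma adjusted p = 0.00261). Of 9 MAP kinase phosphatases tested, 5 fell, none rose and 4 did not pass, where 9.69% of all tested genes fell and 8.86% rose. The median difference of the list was -0.67 on the log2 scale against 0.01 for all tested genes. This list and those below were chosen with earlier results of these data known. DUSP2 fell by 2.74, DUSP4 by 1.76, DUSP7 by 1.43 and DUSP5 by 0.67 on the log2 scale, whereas DUSP1, which acts mainly on p38 and JNK, had a difference of -0.21 (limma adjusted p = 0.416). The DUSP7 probe was well above background on 3 of 6 gefitinib arrays, and its difference was -1.66 to -0.19 in alternative settings. DUSP7 lost its call without the 1 h pair and with normexp background correction, and DUSP5 without the 2 h pair. Of 9 Sprouty, Spred and receptor feedback genes, 6 fell and none rose, with a median of -1.49. Besides SPRY4 these were SPRED1 and SPRED2 (both -1.84), ERRFI1, an inhibitor of the EGFR kinase (-1.49), SPRY2 (-1.49) and SPRY1 (-0.77), of which SPRED1 lost its call without the 2 h pair.

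**Figure D1:**
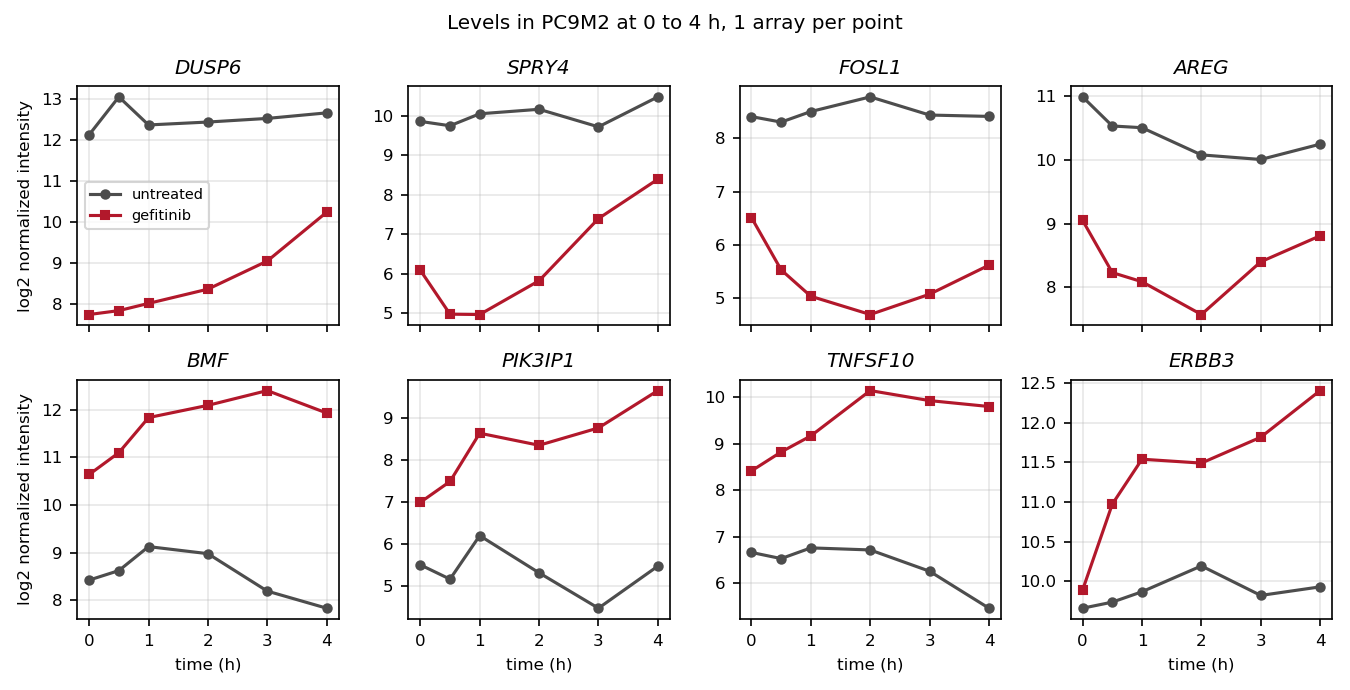
Log2 levels of named genes on each of the 12 arrays against time in hours, 1 point per array, for gefitinib-treated and untreated PC9M2 cells. DUSP6 stayed between 12.13 and 13.05 in untreated cells and between 7.75 and 10.24 with gefitinib.

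Transcription factors of the immediate-early response fell in part. Of 20 tested, 10 fell, 1 rose and 9 did not pass, with a list median of -0.86. The counts in this paragraph stand beside 9.69% of all tested genes falling and 8.86% rising. FOSL1, the AP-1 subunit FRA1, had levels of 8.31, 8.43 and 8.78 in untreated and 4.69, 5.30 and 6.51 in treated cells, a mean difference of -3.07 ± 0.25 (limma adjusted p = 0.00106). The groups were apart, and the lowest treated level was at 2 h. EGR3 fell by 2.74, MYC by 1.96, NR4A1 by 1.70 and JUN by 1.52 on the log2 scale. EGR3 and MYC were each well above background on 2 of 6 gefitinib arrays, and a second MYC probe, above background on all 12, gave -1.58. FOS, the partner of JUN in AP-1, fell by 1.99 with a limma adjusted p of 0.0485, its groups overlapped, and the call was lost when any pair except that of 3 h was left out. FOSL2, another AP-1 subunit, rose by 1.01. EGR1, the prototype of the class, had a mean difference of -1.21 ± 0.84 (limma adjusted p = 0.335), and its course is described below. Of 8 ERK-responsive ETS factors, 5 fell and none rose, with a median of -0.55, ETV1 with -1.28, ETV5 with -0.99 and ETS2 with -0.74. The other 2 were ELK4 and ELK3, and leaving out a single pair ended the call of ELK3 (any pair), ETV5 (1, 2, 3 or 4 h) or ELK4 (0.5, 2 or 3 h). Of 11 further genes induced by ERK signaling, 7 fell and none rose, with a median of -0.58. These included PHLDA1, a regulator of receptor signaling and apoptosis (-2.63), the receptor kinase EPHA2 (-1.92), the urokinase receptor PLAUR (-1.07) and the cytokine LIF (-1.0). Other PHLDA1 probes gave -1.81, -2.39 and -1.60. The LIF probe was well above background on 3 of 6 gefitinib arrays, and a second, above background on all 12, gave -1.40.

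**Figure D2:**
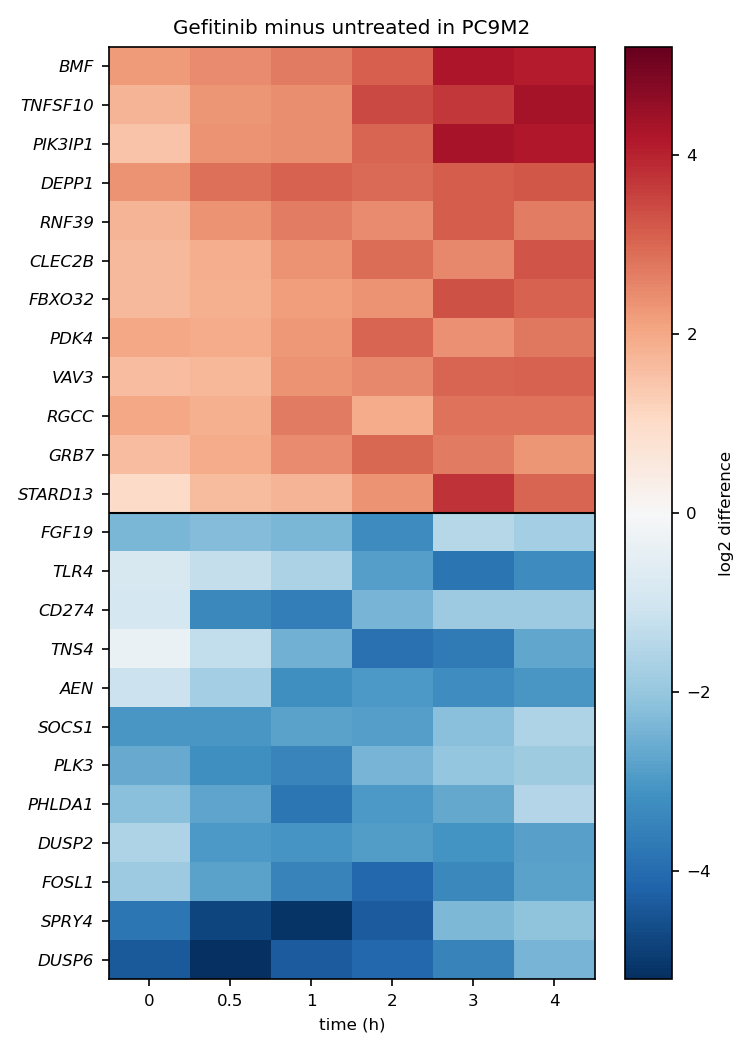
Gefitinib-minus-untreated log2 difference at each time in hours for the 12 largest called rises and 12 largest called falls in PC9M2, as a colour scale from blue (lower with gefitinib) to red (higher). Each cell is 1 pair of arrays. BMF went from 2.22 at 0 h to 4.10 at 4 h, and SPRY4 reached -5.08 at 1 h.

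Among the ERBB family, some ligands fell and a receptor rose. Of 7 ligands tested, 4 fell and none rose, with a median of -1.29, where 9.69% of all tested genes fell. AREG (amphiregulin) had levels of 10.01, 10.37 and 10.99 in untreated and 7.58, 8.32 and 9.05 in treated cells. Its groups did not overlap, and the mean difference was -2.03 ± 0.16 (limma adjusted p = 0.000951). TGFA fell by 1.31 and HBEGF by 1.29 on the log2 scale. The EREG (epiregulin) probe used for the test was not well above background on any gefitinib array and gave -1.83, and a second EREG probe, above background on all 12 arrays, gave -1.98. Of the 4 receptors 1 rose, where 8.86% of all tested genes did. ERBB3, the kinase-poor partner of EGFR that couples to PI3K, had levels of 9.66, 9.85 and 10.19 without and 9.89, 11.52 and 12.40 with gefitinib. The groups overlapped through the 0 h array alone, where the difference was 0.23, and at 4 h it was 2.47. The mean difference was 1.48 ± 0.26 (limma adjusted p = 0.0092). EGFR itself had levels of 10.64 to 11.34 without and 10.84 to 11.38 with the drug, a difference of 0.10 ± 0.08 that did not pass the test (limma adjusted p = 0.431).

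Of 15 genes of the FOXO and insulin branch tested, 9 rose and none fell, where 8.86% of all tested genes rose and 9.69% fell. The list median was 0.89 against 0.01 for all tested genes. PIK3IP1, an inhibitor of PI3K, had levels of 4.47, 5.39 and 6.20 in untreated and 6.99, 8.49 and 9.64 in treated cells. The groups did not overlap, and the mean difference was 2.96 ± 0.37 (limma adjusted p = 0.0032). KLHL24 rose by 2.06, BCL6 by 1.5, CITED2 by 1.48, CCNG2 by 1.41 and FOXO4 by 1.04. CCNG2 lost its call without the 2 h or the 4 h pair, and FOXO4, whose second probe gave 0.38, lost it with the mean of all probes. FOXO3 had a difference of 0.17 that did not pass. Outside that list, DEPP1, a FOXO target linked to autophagy, had levels of 8.18, 8.65 and 8.96 without and 11.06, 11.59 and 11.99 with gefitinib. It was higher at every time point, by 2.33 at 0 h and 3.22 at 4 h, and its mean difference of 2.92 ± 0.12 had a limma adjusted p of 0.000174. FBXO32 (atrogin-1) rose by 2.40 and PDK4, the kinase that inhibits pyruvate dehydrogenase, by 2.39, both also known as FOXO targets.

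Promoter sequences of a strongly rising gene, a gene whose direction turned and a falling ligand are shown because their windows hold a match to a motif that was searched. Each is the 250 bases before the start of the gene from RefSeq on GRCh38.p14, written 5′ to 3′ on the strand of the gene. Capitals mark the match, which was GTAAACA (the FOXO motif) in DEPP1 (chr10:44978810-44979059, minus strand), the CArG box bound by SRF in EGR1 (chr5:138465229-138465478, plus strand) and TGACGTCA (the cyclic AMP response element, CRE) in AREG (chr4:74444886-74445135, plus strand).
DEPP1: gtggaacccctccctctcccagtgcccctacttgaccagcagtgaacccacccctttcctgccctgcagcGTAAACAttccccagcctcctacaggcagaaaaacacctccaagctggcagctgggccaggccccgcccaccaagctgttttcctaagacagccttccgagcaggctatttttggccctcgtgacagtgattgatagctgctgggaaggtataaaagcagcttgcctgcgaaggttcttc
EGR1: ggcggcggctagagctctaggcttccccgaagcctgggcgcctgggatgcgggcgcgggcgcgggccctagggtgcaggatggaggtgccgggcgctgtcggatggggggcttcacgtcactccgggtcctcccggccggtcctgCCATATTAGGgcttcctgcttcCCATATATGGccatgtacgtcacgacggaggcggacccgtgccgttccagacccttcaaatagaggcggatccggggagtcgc
AREG: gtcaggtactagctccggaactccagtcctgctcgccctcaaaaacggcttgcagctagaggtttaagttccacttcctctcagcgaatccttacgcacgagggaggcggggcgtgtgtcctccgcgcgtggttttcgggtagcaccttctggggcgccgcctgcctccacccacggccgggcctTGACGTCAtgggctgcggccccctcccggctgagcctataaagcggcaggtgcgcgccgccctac
The matches began 180 bases before the start in DEPP1 and 65 bases before it in AREG, and the nearer match in EGR1 began 83 bases before it. On either strand, GTAAACA was present in 12 of 153 promoters (7.84%) of called genes at least 2-fold higher, in 5 of 168 (2.98%) of those at least 2-fold lower, in 1.92% of 10443 tested genes with a promoter sequence and in 2.98% of all 27305 promoters. DEPP1, HBP1, MYB, RNF39 and SELENOP were among the 12. The promoters of BMF, TNFSF10, PIK3IP1, PDK4, DUSP6 and SPRY4 held no match to the motifs searched in this window. The CRE was in 1.31% of the higher, 3.57% of the lower and 2.82% of the tested genes, and the CArG box in 1.96%, 1.79% and 1.1%. The AP-1 motif TGANTCA was in 12 of the higher promoters as well (7.84%), against 4.76% of the lower and 4.1% of the tested genes, and the E-box CACGTG in 9.8%, 10.1% and 8.74%. The ETS motif CCGGAAG was in 3.92% of the higher, 13.1% of the lower and 15.3% of the tested genes. A match is a description of the letters and no site of binding.

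Apoptosis genes changed on both sides. The counts below stand beside 18.6% of all tested genes called, 8.86% rising and 9.69% falling. BMF, a BH3-only protein that binds BCL2 survival proteins, had levels of 7.83, 8.52 and 9.13 without and 10.64, 11.88 and 12.40 with gefitinib. It headed the 12 named rises with a mean difference of 3.14 ± 0.28 (limma adjusted p = 0.00131), and its groups were apart. Of 8 BH3-only genes tested, with a median of 0.20, no other was called on the probe used. BBC3 (PUMA) had 0.26 on that probe, whereas its other probes, above background on all 12 arrays, gave 1.40 and 1.20. BCL2L11 had a difference of 0.43 ± 0.31 (limma adjusted p = 0.36) on a probe above background on 3 gefitinib arrays and 1 untreated array, and its other probes, above background on all 12, gave 0.29, 0.42 and 0.71. Of 7 BCL2 survival genes and effectors, 2 fell, BCL2L1 (BCL-XL) by 1.42 and MCL1 by 0.69, and none rose. Other MCL1 probes gave -0.44 and -0.21, and MCL1 lost its call with other choices of probe and without the 2 h pair. TNFSF10, the death ligand TRAIL, had levels of 5.46, 6.60 and 6.76 in untreated and 8.42, 9.49 and 10.15 in treated cells. The groups did not overlap, and the mean difference was 2.98 ± 0.33 (limma adjusted p = 0.00252). Its receptors TNFRSF10A and TNFRSF10B fell by 1.56 and 0.89. In all, 2 of 10 death receptor and ligand genes rose and 2 fell, the second rise being that of CFLAR, an inhibitor of caspase 8 (0.58). CFLAR lost its call when any pair except that of 0 h was left out.

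Genes of growth were called to unequal extents. The counts below stand beside 18.6% of all tested genes called, 8.86% rising and 9.69% falling. Of 11 G1 cyclins and CDK inhibitors, 3 fell and none rose, with a median of -0.26. CCND1 (cyclin D1) had levels of 9.06, 9.44 and 9.78 without and 6.64, 7.77 and 8.79 with the drug, a mean difference of -1.67 ± 0.25 (limma adjusted p = 0.00579), and its groups did not overlap. CCNE2 and CCNE1 fell by 1.71 and 1.25, with CCNE2 well above background on 1 of 6 gefitinib arrays. The CDK inhibitors CDKN1B (0.52) and CDKN1C (1.04) each had a limma adjusted p of 0.0524. A second CDKN1B probe, above background on every array, gave 0.96. Of 17 DNA replication genes 3 fell, a share close to the 18.6% called among all tested genes, and of 14 mitotic genes none was called. In the MYC network, MYC fell while its antagonists MXI1 (1.02), MXD4 (0.98) and MXD3 (0.47) rose, 4 of 9 genes tested, and MXD3 lost its call without the 2 h pair. Of 16 ribosome biogenesis genes, 10 fell and none rose, with a median of -0.66. Among these were POLR1B, a subunit of RNA polymerase I (-1.60), RRS1 (-1.21) and NOP56 (-1.08). Of 13 lysosome and autophagy genes, 6 rose and none fell, with a median of 0.35, led by GABARAPL1 (1.34) and the kinase ULK1 (1.19).

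**Figure D3:**
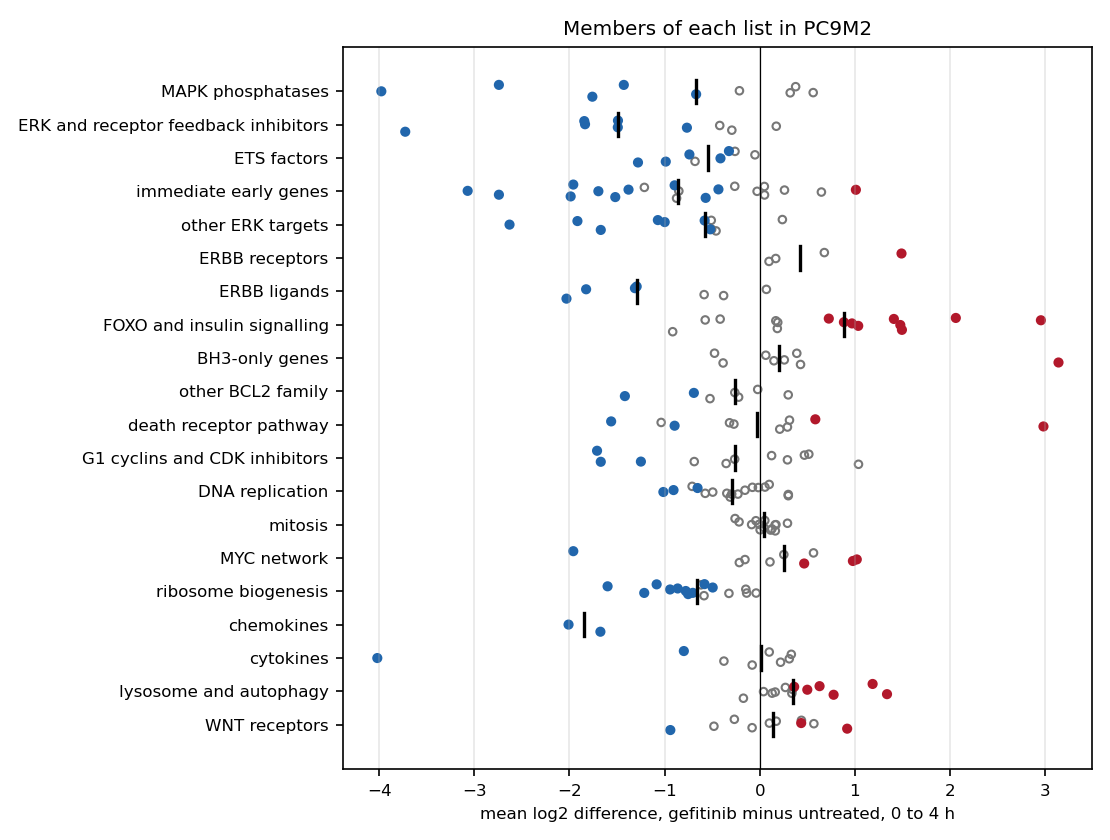
Gefitinib-minus-untreated mean log2 difference of each tested member of the described gene lists in PC9M2, 1 point per gene, filled blue for called falls, filled red for called rises and open where the test was not passed, with a black bar at the list median. The Sprouty and Spred list had a median of -1.49 and the FOXO and insulin list a median of 0.89.

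Several secreted and surface genes fell. CSF2 (GM-CSF) had levels of 6.77, 7.58 and 8.03 in untreated and 2.04, 3.64 and 4.18 in treated cells, and was well above background on 1 of 6 gefitinib arrays. Its groups did not overlap, and the fitted difference was -4.02 ± 0.32 (limma adjusted p = 0.000951). Of 8 cytokines tested, 2 fell, CSF2 and IL1B (-0.80), and none rose, where 18.6% of all tested genes were called and 9.69% fell. IL1B lost its call without the 1, 2 or 4 h pair. Both chemokines tested fell, CXCL1 by 1.67 and CXCL2 by a size that its probes did not settle. The tested CXCL2 probe was not well above background on any gefitinib array, and a second probe, above background on 4 of them, gave -0.91. CD274 (PD-L1), a ligand that restrains T cells, fell by 2.35, with 3 of 6 gefitinib arrays well above background. FGF19 fell by 2.25, SOCS1, an inhibitor of cytokine receptors, by 2.58, and TLR4 by 2.28. A second SOCS1 probe, above background on all 12 arrays, gave -1.20.

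The other large changes were in adaptors and regulators. GRB7, an adaptor of ERBB receptors, had levels of 9.97, 10.07 and 10.29 without and 11.69, 12.50 and 13.03 with gefitinib, and rose by 2.33. VAV3 rose by 2.37, RGCC by 2.36, STARD13 by 2.26, RNF39 by 2.50 and CLEC2B by 2.43. Among falls, the kinase PLK3 fell by 2.59, AEN by 2.54 and TNS4 by 2.41 on the log2 scale. TNS4 went from a difference of -0.34 at 0 h to -3.89 at 2 h. The 24 named rises and falls are the largest among called genes that moved alike at all 6 times. Their probes were well above background on 3 or more arrays of each group, which left out RADIL, CSF2 and EGR3. In each of the 24 the groups did not overlap, a trait that this choice favours. None lost its call when any single time point was left out, whereas TNS4 and TLR4 lost it with the methods' t-test and in the 4 pairs scanned on the same day. Genes with no probe well above background on any array of the dimmer group have only a bound, computed against the dimmest signal well above background. RADIL was at least 3.74-fold higher with gefitinib (limma adjusted p = 0.00446) and SMOC2 at least 2.63-fold higher. MARS2 was at least 2.03-fold lower and DAGLA at least 1.84-fold lower, and DAGLA and CXCL2 lost the call with normexp background correction. The bounds were computed with the main processing alone. In alternative settings the log2 difference was as small as 0.45 for RADIL, 0.16 for SMOC2, -0.15 for MARS2 and -0.08 for DAGLA. ARID5B, whose test probe was below background in untreated cells, rose by 1.51 to 1.84 on its 3 other probes.

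The study set Wnt signaling in PC9M2 against that in PC9, with phosphorylated Akt and GSK3α, β-catenin protein and AXIN2 transcript among its measures. The values here are of another kind, gefitinib effects on transcripts within PC9M2. Of 10 Wnt receptors tested, 2 rose and 1 fell, with a median of 0.14, where 18.6% of all tested genes were called. FZD7 had levels of 10.32, 10.65 and 10.80 without and 11.22, 11.51 and 11.84 with gefitinib. Its groups did not overlap, and it rose by 0.92 ± 0.13 (limma adjusted p = 0.00565). FZD2 rose by 0.44 and FZD9 fell by 0.94, but FZD2 lost its call when any pair except that of 0 h was left out, and FZD9 without the 1 h or the 3 h pair. FZD5 (0.10, limma adjusted p = 0.604) and the β-catenin partner LEF1 (-0.08, limma adjusted p = 0.675) did not pass the test. Of 10 Wnt feedback target genes tested, 1 fell and none rose, with a median of 0.08. AXIN2 had a difference of 0.61 on the tested probe, and a second AXIN2 probe gave 0.85.

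The difference changed with time in 383 genes (2.96% of those tested), upward in 180 (1.39%) and downward in 203 (1.57%), by a limma test of its slope. EGR1 had the steepest rise, 1.58 ± 0.21 per h (limma adjusted p = 0.031). Its untreated level was 10.32, 11.44, 10.97, 9.74, 9.56 and 9.28 at 0, 0.5, 1, 2, 3 and 4 h, and its treated level 7.32, 7.55, 7.49, 9.51, 10.89 and 11.27. The treated level was below the untreated at the first 4 times and above it at 3 and 4 h. FOS had a slope of 1.04 ± 0.18 per h (limma adjusted p = 0.0418), with differences of -3.25 at 0 h, 0.28 at 3 h and -0.27 at 4 h. RADIL and CFAP44 also had positive slopes, without an exact size, since RADIL was well above background on 0 and CFAP44 on 1 of 6 untreated arrays. DDX50 had a slope of 1.02, and a second DDX50 probe had a mean difference of -0.07 against 0.54 for the tested one. Among negative slopes, HSD3B1, an enzyme of steroid synthesis, had -0.85 per h, with differences of -0.15 at 0 h and -3.27 at 4 h. XYLB had -0.79, the heat shock gene HSPA6 -0.74, TLR4 -0.73 and SHC3 -0.70 per h. The untreated level of XYLB was 8.07 at 4 h against 4.96 to 5.56 at the other times. A second XYLB probe had a mean difference of -0.35 against -0.99 for the tested one. The untreated level of HSPA6 went from 5.24 at 0 h to 8.92 at 4 h, and its treated level from 5.42 to 6.20. These calls rest on few points: limma called 0 genes when the 0, 0.5, 1, 3 or 4 h pair was left out and 255 without the 2 h pair, with 1567 to 3202 genes at an unadjusted p under 0.05, and the methods' t-test called 25 on all 6 pairs.

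**Figure D4:**
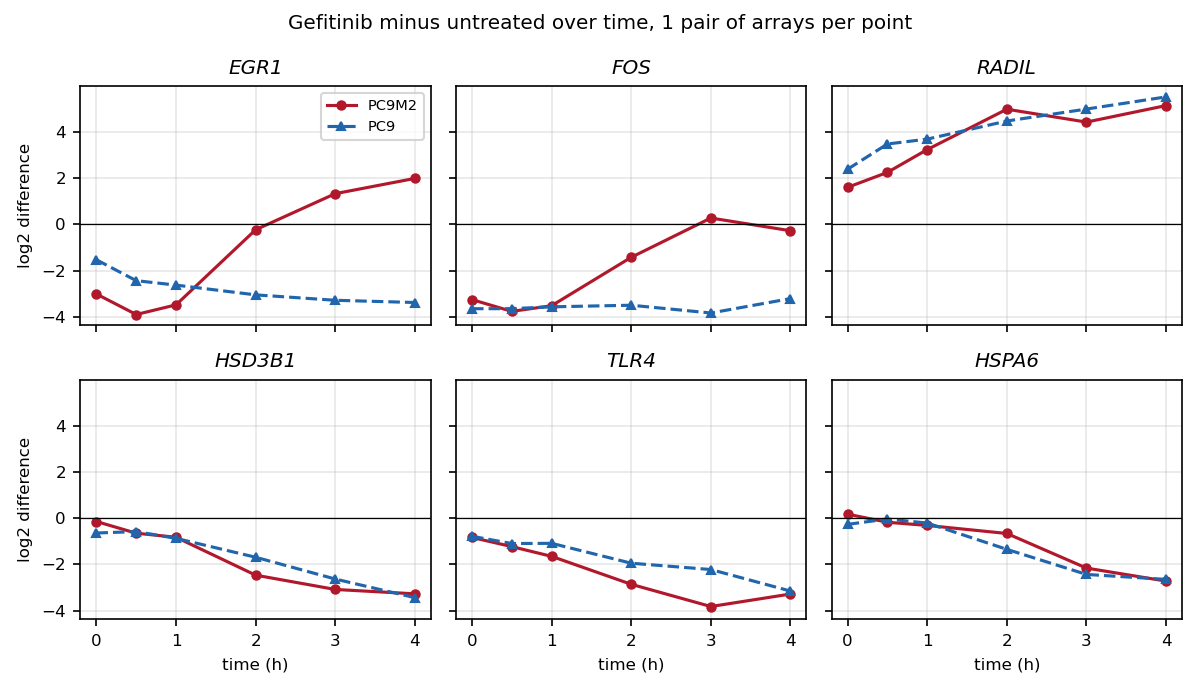
Gefitinib-minus-untreated log2 difference against time in hours in PC9M2 and PC9, 1 pair of arrays per point, for 6 genes with large called slopes in PC9M2. EGR1 in PC9M2 went from -3.0 at 0 h to 1.99 at 4 h.

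The response of PC9M2 was then set against that of parental PC9 cells at the same times. The difference between the lines passed the limma test in 340 genes (2.63%), 125 with a more positive value in PC9M2 (0.967%) and 215 with a more negative one (1.66%), and reached 2-fold in 59. Of the 340 genes, 132 were also called for the mean effect in PC9M2. The mean difference had the same sign in both lines in 149, with the smaller size in PC9M2 in 98, and opposite signs in 191, which include values close to 0. KLF2, a Krüppel-like transcription factor, had a difference of -0.32 in PC9M2 and -2.22 in PC9, a contrast of 1.90 ± 0.23 (limma adjusted p = 0.0276). All 6 time points had this direction, and a second KLF2 probe gave 0.14 in PC9M2. KDM6B, a histone demethylase, was at 0.04 in PC9M2 and -1.59 in PC9, and SCNN1G, a sodium channel subunit, at 0.06 and -1.36. IL1RL1 was at -0.21 and -1.59 and SPRR2D at -0.60 and -1.86. MYB rose less in PC9M2 (1.69) than in PC9 (3.34), by a contrast of -1.65 ± 0.21 (limma adjusted p = 0.0276). UBD was at -0.33 and 1.21, VSNL1 at -1.47 and 0.05 and SLC6A14 at -1.41 and -0.05. In PC9M2 the SLC6A14 probe was well above background on 2 of 6 gefitinib and 5 of 6 untreated arrays. A second SLC6A14 probe was so on 1 gefitinib and no untreated array, and cannot settle the size. The UBD and KDM6B probes were each well above background on 3 of 6 gefitinib and 4 of 6 untreated arrays of PC9M2. FAM111B was not well above background on any gefitinib array of PC9M2, so that its contrast has no exact size. Of the 24 named rises and falls, FOSL1 fell less in PC9M2 (contrast 1.00, limma adjusted p = 0.0436), VAV3 rose less (-1.14, limma adjusted p = 0.0354) and SOCS1 fell more (-0.88, limma adjusted p = 0.05). A second SOCS1 probe gave -1.20 in PC9M2 against -2.58 for the tested one. The lines shared no slide or scan day, and 672 to 1702 features were saturated on each PC9 array against 0 on the PC9M2 arrays. The part of these in the contrast was not tested. limma called 162 genes without the 0 h pairs, 95 without the 3 h pairs and 0 without the 0.5, 1, 2 or 4 h pairs, with 2290 to 3091 at an unadjusted p under 0.05, and the methods' t-test called 32 on all 6 pairs.

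**Figure D5:**
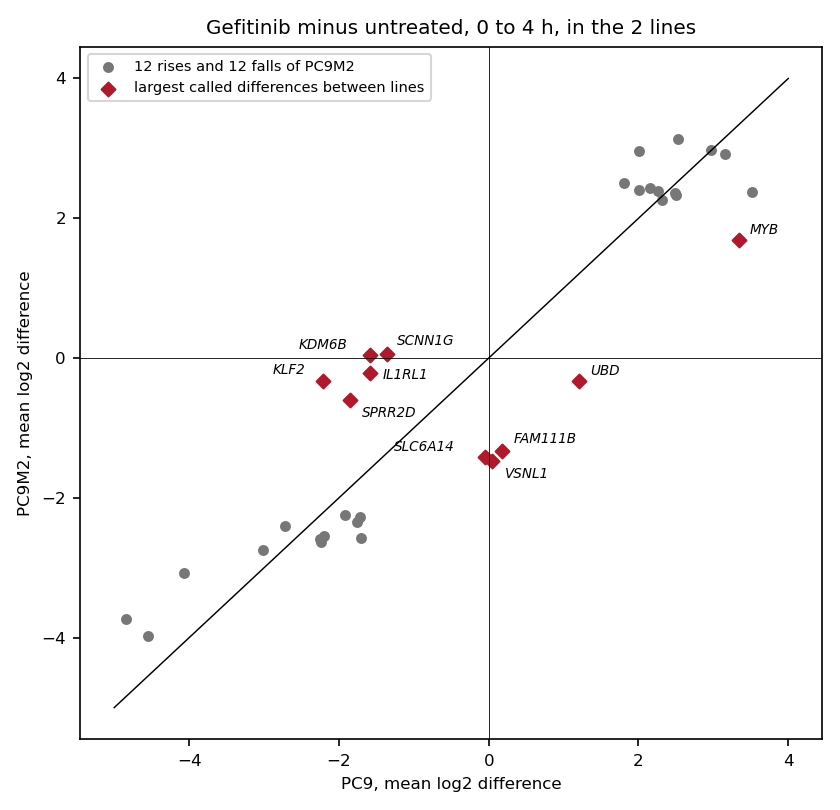
Mean gefitinib-minus-untreated log2 difference over 0 to 4 h in PC9M2 against PC9, 1 point per gene, with the line of equal change. Circles are the 12 named rises and 12 named falls of PC9M2 and diamonds the largest called differences between the lines, among them KLF2 at -0.32 in PC9M2 and -2.22 in PC9.

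The early response differed from that at 19 to 24 h in 6432 genes (49.7%), 3296 with the more positive value early (25.5%) and 3136 with the more negative one (24.3%), and by at least 2-fold in 1968. DUSP6 had a difference of -3.98 early and -1.59 late, SPRY4 of -3.73 and -0.83, and FOS of -1.99 and 0.64. SCG2, a secretory granule protein, was at -0.40 early and -4.53 late, and BIRC3, an inhibitor of apoptosis and NF-κB target, at -0.13 and -4.14. CIB3 was at 0.25 and -4.36, HRG at 0.82 and -3.41 and ARL14 at 0.29 and -3.55. In the other direction, CYP4B1 was at 0.49 early and 4.80 late, RTN4RL1 at 0.45 and 4.72 and EEF1AKMT2 at -0.16 and 4.40. NEK3 and CCDC180 were well above background on 0 of 6 late untreated arrays, so that their late difference has no exact size, and the contrast of CCDC180 changed sign with normexp and with another probe. Early and late slides were scanned on different days, so that the scan day and the window cannot be told apart.

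In PC9M2 cells given EGF, the response was the difference of EGF with gefitinib minus EGF at the same time points. The 0.5 h pair of these arrays went against its labels. At 0.5 h DUSP6 was at 7.75 on the array labelled EGF and at 12.53 on that labelled EGF with gefitinib, a difference of 4.79, whereas the other 5 pairs had -3.17 to -4.79. Across 12929 genes that pair correlated at -0.668 with the mean difference without EGF, against 0.452 to 0.811 for the other 5. With the arrays as labelled, limma called no gene for the difference between the response without and with EGF, and 331 genes had an unadjusted p under 0.05. The methods' t-test called none either, with 354 at an unadjusted p under 0.05. Without the 0.5 h pairs limma also called none, with 853 genes at an unadjusted p under 0.05 and a lowest adjusted p of 0.161. Between the response without and with EGF, FOSL1 then differed by 1.48, BMF by -1.40, SPRY4 by 1.17, PIK3IP1 by -0.64 and DUSP6 by 0.55, none past the test (limma adjusted p = 0.718 for each).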

How the data were processed

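RNA of PC9M2 and PC9 cells had been hybridised to 1-colour Agilent 44K arrays, and the authors deposited per-array processed signal intensity from Feature Extraction 10.5.1.1, per the file headers, and a quantile-normalized intensity table that gave the same results. Here intensities were floored at 1, quantile normalized over all 208 arrays and taken to log2, control spots and outlier flags were left out, and the probe with the largest variance stood for a gene. A gene entered the test if 3 or more of the 6 arrays of either course had its probe well above background. Of 41000 probes, 24794 matched a symbol. Genes with a missing pair numbered 53 of those tested. Differences at matched time points, as in the study's methods, were fitted with limma 3.58.1 in R 4.3.3 (two-sided, Benjamini-Hochberg at 0.05). Time points on the same slide paired the samples, and the fit without that replicate block was an alternative. No depth is defined for arrays, and their number limits the precision. The fits were tested on simulated data.

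Named were the 12 largest rises and falls that moved alike at all 6 times with 3 or more arrays of each group well above background, the 3 largest bounds in each direction, up to 6 called members and the head of each described list, the 5 largest slopes and contrasts in each direction, and genes whose courses the study plotted. The values of other probes were chosen after they were seen. The gene lists and the genes in them were chosen with earlier results of these data known, so that their counts and medians are descriptive. The arrays were chosen by label. The normexp alternative used the median signal, because no mean signal column was given here. Promoters matched 10443 tested genes, both strands were searched, and motifs were GTAAACA (FOXO), TGANTCA (AP-1), TGACGTCA (CRE), CCGGAAG (ETS), CACGTG (E-box) and the CArG box.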

Additional observations from a re-analysis of the deposited data

Results flagged for a closer look

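Among 103 sets of 6 differences examined for a single value far from the rest, 4 had one, and chance gives about 1 in 20. These were DUSP2 with -1.60 at 0 h, ELK4 with -0.0761 at 1 h, LAMP2 with 0.71 at 2 h and FZD5 with -0.55 at 4 h.

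The gefitinib response differed between PC9M2 and PC9 in 340 genes by a limma test of the contrast. The largest contrasts, PC9M2 minus PC9, were KLF2 (1.90), KDM6B (1.63), SCNN1G (1.42), IL1RL1 (1.37) and SPRR2D (1.26), and MYB (-1.65), UBD (-1.54), VSNL1 (-1.52), FAM111B (-1.51) and SLC6A14 (-1.37). FAM111B was well above background on 0 of 6 gefitinib arrays of PC9M2.

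The response at 0 to 4 h differed from that at 19 to 24 h in 6432 genes. The largest contrasts, early minus late, were CIB3 (4.61), HRG (4.23), SCG2 (4.12), BIRC3 (4.00) and ARL14 (3.84), and on the other side CCDC180 (-5.53), NEK3 (-5.10), EEF1AKMT2 (-4.56), CYP4B1 (-4.31) and RTN4RL1 (-4.28). CCDC180 and NEK3 were well above background on 0 of 6 late untreated arrays, and CCDC180 changed sign with normexp (0.47) and with the probe of highest mean (0.59).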

How the results depend on the processing

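The count of 2399 genes for the mean effect was 1423 with the methods' t-test (4136 at an unadjusted p under 0.05), 1332 without the replicate block, 0 with 0, 1 and 3 h alone, 97 with 0.5, 2 and 4 h alone, 405 at 2-fold, 505 with the 4 pairs of 1 scan day and 1495 with scan day as a random block (consensus correlation 0.141), both chosen after seeing the data, and 1205 to 2148 with each time point left out. The 383 slopes became 605 with 75th percentile scaling, 1122 with normexp, 799 with the probe of highest mean, 711 with the mean of probes, 0 with no filter (3288 at an unadjusted p under 0.05), 686 with the probe above background on all 6 arrays, 25 with the t-test and 0 to 255 with each time point left out. The 340 contrasts between lines became 595, 919, 755, 583, 5, 580 and 32 in the same order, 556 with a floor of 16, 0 with 0, 1 and 3 h or 0.5, 2 and 4 h alone, 59 at 2-fold and 0 to 162 with each time point left out. The 6432 early-minus-late genes became 1968 at 2-fold and 3780 against 5 to 24 h, 6050 to 6593 with each early and 5924 to 6047 with each late time point left out, the last chosen after seeing the data. The comparison with EGF gave 0 to 1. CCDC180 turned from -5.53 to 0.47 with normexp and 0.59 with the probe of highest mean. The causes were not tested. For the mean effect, 94 called genes picked by the naming rules were followed through the settings. Counting each gene once per setting, 1639 values kept direction and call and 330 lost the call. Since only called genes entered, no call could be gained.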

Other observations

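Other gene groups in the mean effect over 0 to 4 h were as follows, where 18.6% of all tested genes were called. Of 14 core clock genes 2 rose and 6 fell. Of 14 other receptor kinases and ligands, PDGFA alone was called (-0.71). No gene was called among 14 of the β-catenin complex, 10 cytosolic chaperones and 7 cadherins and mesenchymal genes in the limma fit.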
